A study of Oryza sativa Japonica Group with 6 samples.

Results

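The genes described here are 34 rice loci, of 55986 in the deposited tables, that were high in 1 of the 3 pools of the overexpression plants (OEZ) and low in the other OEZ pools. The members were chosen by their FPKM, a level that corrects the fragments counted for transcript length and library size. A locus was taken when its FPKM was at least 5 in OEZ replicate 2 and at least 10 times the larger of OEZ replicates 1 and 3, with both sides floored at 0.1. Of the 9 alpha-amylase and 2 TIP3 aquaporin loci that were set aside by name, 10 are in the tables, and 4 alpha-amylases met the same thresholds. The members were thus selected on the OEZ values, whose levels are given as a description, whereas the ZH17 levels were not used in the choice.

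OEZ plants were the japonica variety Zhonghua17 carrying the IL112 allele of OsLTPL159, a nonspecific lipid transfer protein, driven by a constitutive viral promoter. ZH17 plants were nontransformed Zhonghua17. All 6 samples were early seedlings with buds of about 5 mm kept at 2 °C for 3 h, with 3 pools of 50 plants per genotype, and no unchilled sample was analysed here. The methods do not say which transgenic line was sequenced, and for RNA-seq they name early seedlings without saying whether the grain was removed. Buds and roots are named as the harvested parts for the separate RT-qPCR.

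A rice grain stores glutelins, prolamins, globulins and albumins in its endosperm, and the transcripts of these storage proteins are made while the seed matures. On germination the aleurone and the scutellum secrete alpha-amylases, which break down starch for the growing seedling. At this stage a seedling normally still bears its grain, and in a pool of whole seedlings fewer cells of a tissue cannot be told apart from less RNA per cell.

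OsLTPL159 (LOC_Os10g36160) was at 2506, 2540 and 2502 FPKM in OEZ replicates 1, 2 and 3, against 141, 138 and 131 FPKM in ZH17, so that each library matched its genotype. FPKM tables hold no number of reads. Relative depth, read from the most frequent ratio of low FPKM values, was 1.28, 1.02 and 1.32 in OEZ replicates 1, 2 and 3 and 1 to 1.16 in ZH17. By this rough estimate the OEZ pools in which the 34 loci were low were the more deeply sequenced ones. The most frequent ratio was shared by only 115 of 977 loci compared for OEZ replicate 1. For OEZ replicates 2 and 3 it was shared by 272 of 904 and 246 of 1031 loci. A part of depth in the levels was not tested. The 34 loci together took 0.197% of the summed FPKM in OEZ replicate 2, 0.00106% and 0.00146% in OEZ replicates 1 and 3, and 0.0463% to 0.0827% in ZH17.

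All 34 loci were above 0 in OEZ replicate 2, while 25 were listed at 0 in OEZ replicate 1 and 22 in OEZ replicate 3. In the ZH17 pools, 26, 27 and 26 of them were above 0 in replicates 1, 2 and 3. The OEZ counts follow from how the loci were chosen. In 24 of the 34 loci every ZH17 pool lay above the larger of OEZ replicates 1 and 3, against 17.3% of the other 14638 loci with at least 5 FPKM in OEZ replicate 2. In 33 of the 34 every ZH17 pool lay below OEZ replicate 2, against 33.4% of the others. Taking loci for a high OEZ replicate 2 and low OEZ replicates 1 and 3 favours both counts.

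**Figure D1:**
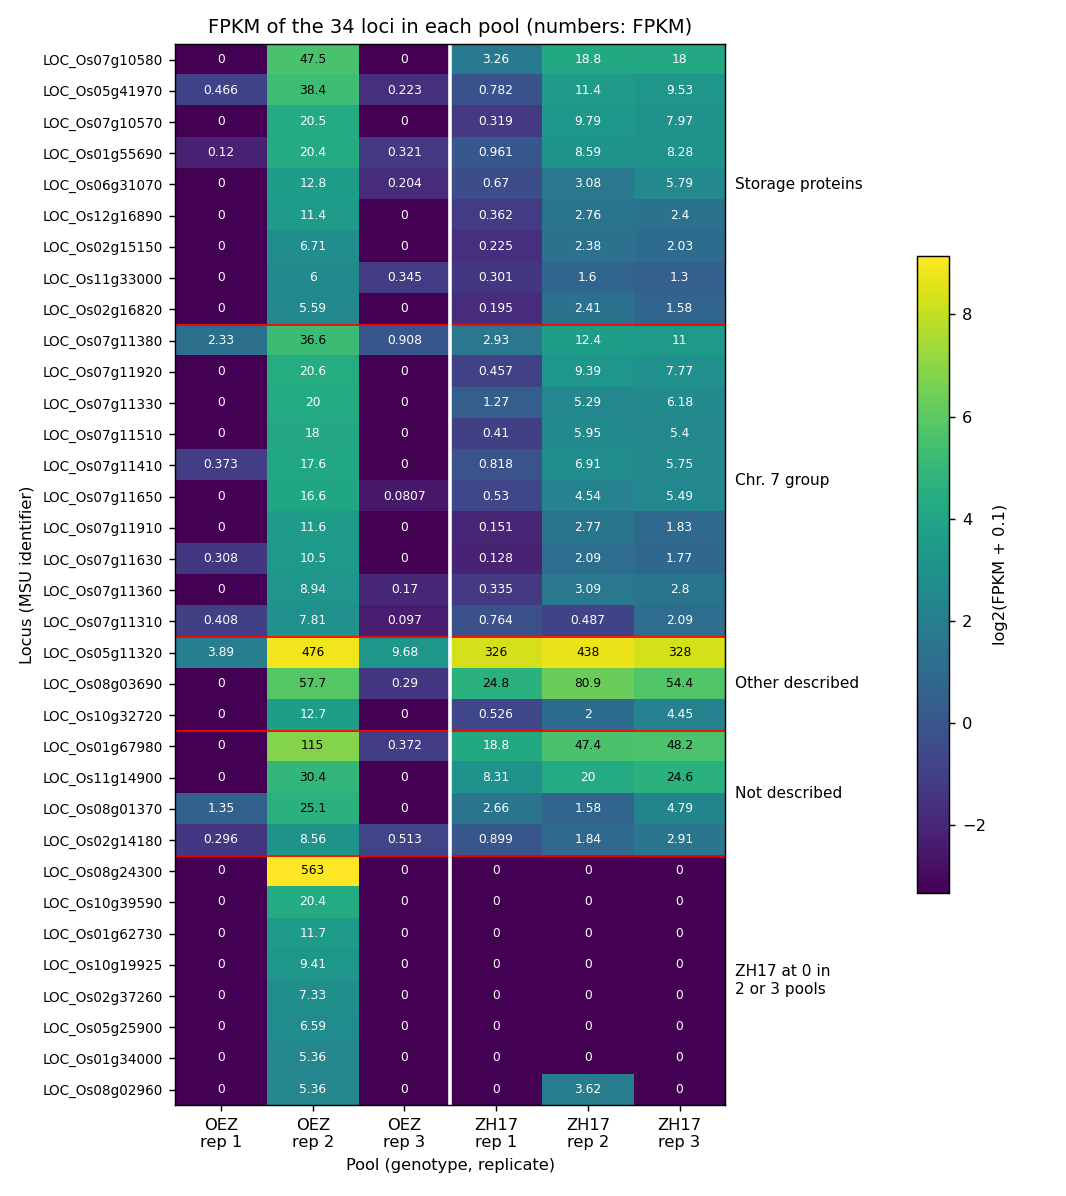
FPKM of the 34 loci (rows, named by MSU identifier) in the 3 OEZ and 3 ZH17 pools (columns), with colour on a log2(FPKM + 0.1) scale and the FPKM printed in each cell. Loci are grouped as in the text, and 26 of the 34 were above 0 in every ZH17 pool while the bottom 8 were not.

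Storage protein loci formed the largest annotated group. Of the 34, 8 are on the glutelin or the prolamin and globulin list, and the authors' descriptions name 2 further prolamins, PROLM28 (LOC_Os12g16890) and PROLM20 (LOC_Os07g11910). The summed FPKM of the 9 of these loci that lie outside a group on chromosome 7 described next was 0.586, 169 and 1.09 in OEZ replicates 1, 2 and 3, against 7.08, 60.8 and 56.9 in ZH17 replicates 1, 2 and 3. ZH17 replicates 2 and 3 thus held 35.9% and 33.6% of the OEZ replicate 2 level, and ZH17 replicate 1 held 4.18%.

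LOC_Os07g10580, a locus of the prolamin and globulin list and the highest of this group, was listed at 0 in OEZ replicates 1 and 3 and was at 47.5 FPKM in OEZ replicate 2, against 3.26, 18.8 and 18.05 FPKM in ZH17 replicates 1, 2 and 3. Its neighbour LOC_Os07g10570, on the same list, was at 0, 20.5 and 0 FPKM in OEZ replicates 1, 2 and 3, against 0.319, 9.79 and 7.97 FPKM in ZH17. LOC_Os05g41970, described as SSA1, a seed storage protein of the 2S albumin family, was at 0.466, 38.4 and 0.223 FPKM in OEZ, against 0.782, 11.4 and 9.53 FPKM in ZH17. In these 3 loci ZH17 replicate 1 was nearer to the low OEZ pools, and ZH17 replicates 2 and 3 stood between them and OEZ replicate 2.

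The prolamin list members LOC_Os06g31070 and LOC_Os11g33000 and the prolamin PROLM28 were at 12.8, 6.005 and 11.4 FPKM in OEZ replicate 2, at or below 0.345 FPKM in the other OEZ pools, and between 0.301 and 5.79 FPKM in ZH17. LOC_Os11g33000 differed from the other storage protein members in that ZH17 replicate 1, at 0.301 FPKM, lay below OEZ replicate 3, at 0.345 FPKM.

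The glutelin list showed the same order of pools at lower levels. LOC_Os01g55690 was at 0.120, 20.4 and 0.321 FPKM in OEZ replicates 1, 2 and 3, against 0.961, 8.59 and 8.28 FPKM in ZH17. LOC_Os02g15150 and LOC_Os02g16820 were at 6.71 and 5.59 FPKM in OEZ replicate 2 and listed at 0 in the other OEZ pools, and neither exceeded 2.41 FPKM in ZH17. Of the 12 loci on the glutelin list 10 were above 0 in some pool, and in all 10 OEZ replicate 2 was the highest of the 6 pools. Only 3 of them are among the 34, since the others stayed under 5 FPKM or, like LOC_Os10g26060, under the ratio of 10.

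Of the 16 loci on the prolamin and globulin list, 14 were above 0 in some pool and 5 are among the 34. OEZ replicate 2 exceeded OEZ replicates 1 and 3 in 13, and in 10 it was the highest of the 6 pools. The summed FPKM of the whole list was 0.466, 135 and 0.772 in OEZ replicates 1, 2 and 3, against 5.63, 55.0 and 53.8 in ZH17. LOC_Os05g26386, a locus of the list that is not among the 34, was at 2.27 FPKM in OEZ replicate 2 and at 0, 4.80 and 2.56 FPKM in ZH17, and so was among the loci of the list that were not highest in OEZ replicate 2.

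Chromosome 7 held 12 of the 34 loci, the most of any chromosome. Besides the neighbouring pair LOC_Os07g10570 and LOC_Os07g10580, 10 loci lay among the 55 listed from LOC_Os07g11310 to LOC_Os07g11920. The authors' descriptions name LTPL166 (LOC_Os07g11310) and LTPL163 (LOC_Os07g11630), of the protease inhibitor, seed storage and lipid transfer protein family to which OsLTPL159 also belongs, and PROLM20. The remaining 7 have no description in the sources used here. Members of this family and prolamins can share sequence, and reads could be split between near copies, so single values within the group are uncertain.

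The summed FPKM of these 10 loci was 3.42, 168 and 1.26 in OEZ replicates 1, 2 and 3, against 7.79, 52.9 and 50.1 in ZH17 replicates 1, 2 and 3. LOC_Os07g11380 was the highest, with 2.33, 36.6 and 0.908 FPKM in OEZ, against 2.93, 12.4 and 11.0 FPKM in ZH17. Its ratio of 15.7 was also the lowest of all 34 loci. LOC_Os07g11920, at 0, 20.6 and 0 FPKM in OEZ and 0.457, 9.39 and 7.77 FPKM in ZH17, was the second locus of the group in OEZ replicate 2. LOC_Os07g11330, LOC_Os07g11510, LOC_Os07g11410, LOC_Os07g11650 and LOC_Os07g11360 were between 8.94 and 20.02 FPKM in OEZ replicate 2, at or below 0.373 FPKM in the other OEZ pools, and highest in ZH17 replicate 2 or 3. From LOC_Os07g11310 to LOC_Os07g11510 the 6 members formed a chain with MSU numbers at most 100 apart. PROLM20 was at 0, 11.6 and 0 FPKM in OEZ, against 0.151, 2.77 and 1.83 FPKM in ZH17.

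LTPL166 departed from the others of the group, with 0.408, 7.81 and 0.0970 FPKM in OEZ and 0.764, 0.487 and 2.09 FPKM in ZH17, so that ZH17 replicate 2 and not replicate 1 was the lowest ZH17 pool. LTPL163 was at 0.308, 10.5 and 0 FPKM in OEZ and 0.128, 2.09 and 1.77 FPKM in ZH17, and ZH17 replicate 1 fell below OEZ replicate 1. Of the other 45 loci in the range, 39 were listed at 0 in every pool. The 3 that reached 1 FPKM in OEZ replicate 2 were LOC_Os07g11900, at 1.79 FPKM there and 0 in the other OEZ pools, and LOC_Os07g11440 and LOC_Os07g11490, whose OEZ replicate 2 level was 0.827 and 1.05 times the larger of the other OEZ pools. LOC_Os07g11900 thus had the order of the OEZ pools at a lower level, and LOC_Os07g11440 and LOC_Os07g11490 did not.

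A second kind of locus had a ZH17 median nearer to OEZ replicate 2 than the storage protein loci had. LOC_Os05g11320, described as a metallothionein-like protein of type 3B, a small cysteine-rich protein that binds metal ions, was at 3.89, 476 and 9.68 FPKM in OEZ replicates 1, 2 and 3, against 326, 438 and 328 FPKM in ZH17. LOC_Os08g03690, described as LTPL24, was at 0, 57.7 and 0.290 FPKM in OEZ, against 24.8, 80.9 and 54.4 FPKM in ZH17, and was the locus of the 34 in which a ZH17 pool exceeded OEZ replicate 2. In both, OEZ replicates 1 and 3 stood apart as the low pools. The ZH17 pools stood close together in the metallothionein-like locus, within 1.34-fold. In LTPL24 they spread 3.26-fold, with ZH17 replicate 1 the lowest.

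LOC_Os11g14900, which has no description here, was at 0, 30.4 and 0 FPKM in OEZ, against 8.31, 20.01 and 24.6 FPKM in ZH17. LOC_Os01g67980, also without a description, was at 0, 115 and 0.372 FPKM in OEZ, against 18.8, 47.4 and 48.2 FPKM in ZH17. Their ZH17 medians were 65.8% and 41.2% of OEZ replicate 2, compared with 69.0% for the metallothionein-like locus, 94.1% for LTPL24 and 21.0% to 40.5% for the 9 storage protein loci. LOC_Os10g32720, described as an AWPM-19-like membrane protein, a family known from wheat, was at 0, 12.7 and 0 FPKM in OEZ, against 0.526, 2.001 and 4.45 FPKM in ZH17, with a ZH17 median of 15.7% of OEZ replicate 2. Leaving out ZH17 replicates 1, 2 and 3 in turn, its ratio of the ZH17 median to OEZ replicate 2 was 0.254, 0.196 and 0.0994. The 9 storage protein loci then ranged from 0.226 to 0.434, from 0.121 to 0.253 and from 0.137 to 0.247. It thus lay below their range only without ZH17 replicate 3 and with all ZH17 pools.

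Of the remaining members above 0 in every ZH17 pool, LOC_Os08g01370 was at 1.35, 25.1 and 0 FPKM in OEZ and 2.66, 1.58 and 4.79 FPKM in ZH17. LOC_Os02g14180 was at 0.296, 8.56 and 0.513 FPKM in OEZ and 0.899, 1.84 and 2.91 FPKM in ZH17. Neither is described in the sources used here, and in both every ZH17 pool lay between the low OEZ pools and OEZ replicate 2.

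**Figure D2:**
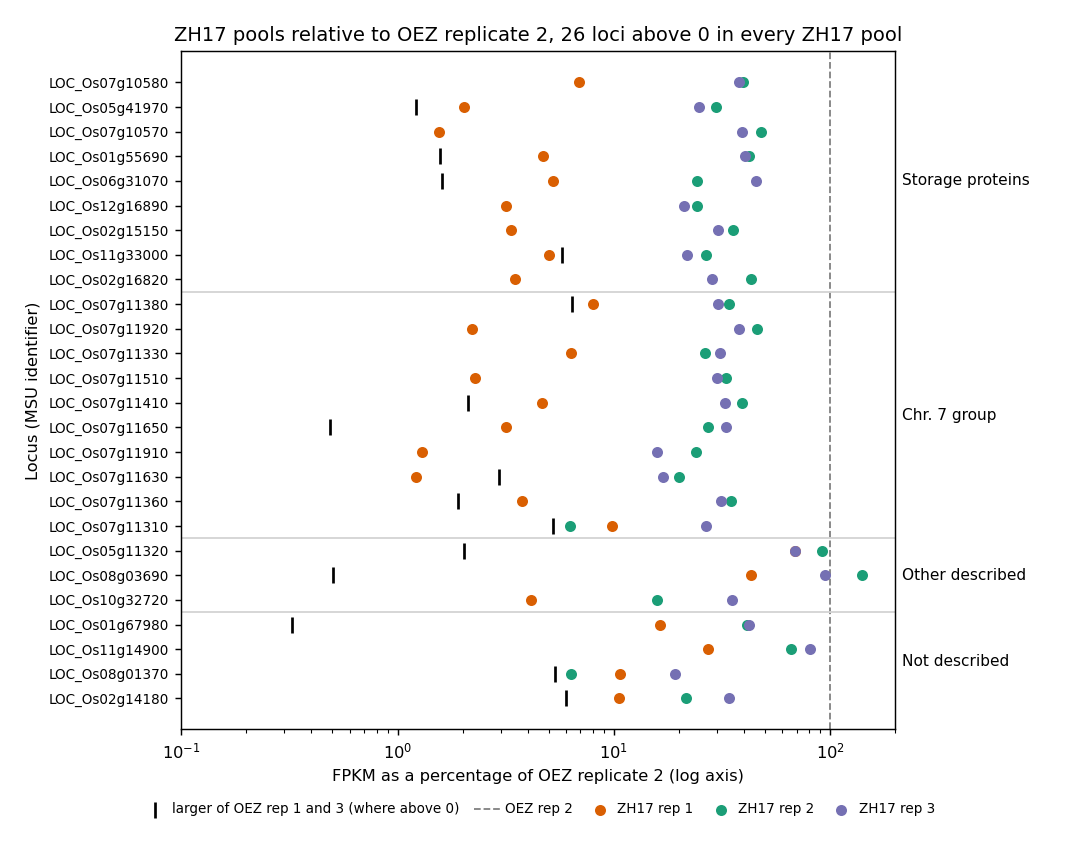
FPKM as a percentage of OEZ replicate 2 (log axis) for the 26 loci above 0 in every ZH17 pool: points are the ZH17 pools, black ticks the larger of OEZ replicates 1 and 3 where above 0, and the dashed line OEZ replicate 2. ZH17 replicate 1 was the lowest ZH17 pool in 24 of the 26 loci, and its distance from the other ZH17 pools was wide for the storage protein loci and small for LOC_Os05g11320.

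The ZH17 pools also differed among themselves in these loci. Among the 26 loci above 0 in every ZH17 pool, ZH17 replicate 1 was the lowest in 24, whereas it was the lowest in 43.6% of the other 14638 loci with at least 5 FPKM in OEZ replicate 2. The highest ZH17 pool exceeded the lowest by a median of 8.46-fold over the 26 loci, against 1.16-fold over the other loci. Of those other loci, 99% were within 2.52-fold. They were not matched to the 26 for level, and fold spreads can be wider at low FPKM. Medians of the 26 loci were 0.717, 4.91 and 5.62 FPKM in ZH17 replicates 1, 2 and 3. The ZH17 median of the other loci was typically 98.9% of their level in OEZ replicate 2. The widest spreads in loci above 0 in every ZH17 pool were those of LOC_Os07g10570 (30.7-fold), LOC_Os07g11920 (20.6-fold), PROLM20 (18.3-fold), LTPL163 (16.3-fold) and SSA1 (14.6-fold). The narrowest were those of the metallothionein-like locus (1.34-fold), LOC_Os01g67980 (2.56-fold), LOC_Os11g14900 (2.96-fold), LOC_Os08g01370 (3.03-fold) and LOC_Os02g14180 (3.23-fold).

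Because of this spread the ZH17 profile was not a constant fraction of OEZ replicate 2. ZH17 replicate 1 held 4.18% of the OEZ replicate 2 sum for the storage protein loci and 4.63% for the chromosome 7 group. For ZH17 replicate 2 these shares were 35.9% and 31.4%, and for ZH17 replicate 3 they were 33.6% and 29.8%. In ZH17 replicate 1 the metallothionein-like locus was at 326 FPKM, against 476 FPKM in OEZ replicate 2, while the AWPM-19-like locus was at 0.526 FPKM, against 12.7 FPKM in OEZ replicate 2, a fraction as small as that of the storage protein loci. Across the 26 loci, Pearson's r of log2 FPKM with OEZ replicate 2 was 0.90, 0.92 and 0.96 in ZH17 replicates 1, 2 and 3. Spearman's rho was 0.78, 0.84 and 0.94. Both are correlations over loci, which are not independent replicates and were chosen on OEZ values.

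The other 8 loci did not show this pattern. LOC_Os08g24300, the highest of all 34 at 563 FPKM in OEZ replicate 2, was listed at 0 in the other 5 pools. LOC_Os10g39590 (20.4 FPKM), LOC_Os01g62730 (11.7 FPKM), LOC_Os10g19925 (9.41 FPKM), LOC_Os02g37260 (7.33 FPKM), LOC_Os05g25900 (6.59 FPKM) and LOC_Os01g34000 (5.36 FPKM) were likewise above 0 in OEZ replicate 2 alone. LOC_Os08g02960 was at 5.36 FPKM in OEZ replicate 2 and 3.62 FPKM in ZH17 replicate 2 and listed at 0 elsewhere. None of the 8 has a description here, and a listed 0 may stand for a level that could not be estimated.

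The same thresholds were then applied with each of the other 5 pools as the high one, against both other pools of its genotype. They were met by 18 loci for OEZ replicate 1, 34 for OEZ replicate 2 and 26 for OEZ replicate 3. For ZH17 replicates 1, 2 and 3 the numbers were 18, 20 and 12. None of the other sets shared a locus with the 34. For OEZ replicates 1 and 3 the rule made a shared locus impossible. The ZH17 sets were small beside all 55986 loci, so nothing is read from the lack of overlap. Loci above 0 in the high pool alone numbered 7 in each OEZ set and 6, 5 and 3 in the ZH17 sets, so the 7 found for OEZ replicate 2 matched the number of the other OEZ pools. Loci above 0 in all 3 pools of the other genotype numbered 0, 26 and 2 for OEZ replicates 1, 2 and 3, and 1, 4 and 1 for ZH17 replicates 1, 2 and 3. In 15 of the 34 loci a low OEZ pool was still above 0, against 0 and 1 loci in the sets of OEZ replicates 1 and 3 and 1, 0 and 0 in those of ZH17.

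**Figure D3:**
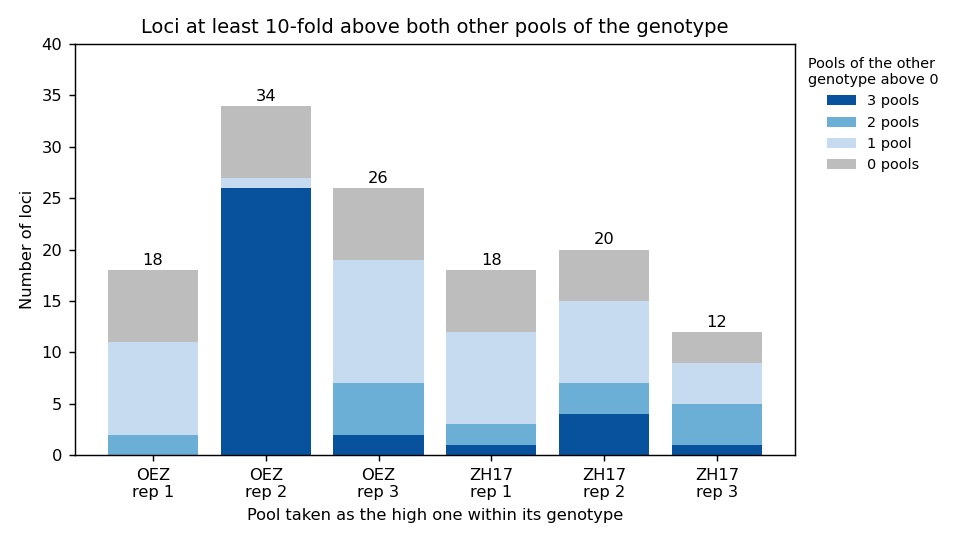
Number of loci (vertical axis) with at least 5 FPKM in the pool named below each bar and at least 10 times both other pools of that genotype, divided by how many pools of the other genotype were above 0. For OEZ replicate 2, 26 of 34 loci were above 0 in all 3 pools of the other genotype, against at most 4 loci for any other pool.

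A choice that did not read OEZ replicate 2 was also made. With a ZH17 median of at least 5 FPKM and at least 10 times the larger of OEZ replicates 1 and 3, 21 loci were found, and in 16 of them OEZ replicate 2 was at least 50% of the ZH17 median. These 16 were 12 of the 34 loci and the 4 alpha-amylases. This choice again required low OEZ replicates 1 and 3, as the rule did, so the overlap was partly fixed in advance. In the other 5 loci OEZ replicate 2 was listed at 0 like the other OEZ pools, among them LOC_Os01g10880, at 43.1 to 144 FPKM in ZH17, and LOC_Os07g13220, at 40.3 to 46.0 FPKM in ZH17. The same choice made on OEZ replicates 1 and 2, or on 2 and 3, gave 10 and 7 loci. In 5 and 1 of these the OEZ pool left out was at least 50% of the ZH17 median, and in 5 and 2 it was above 0.

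Of the 8 alpha-amylases in the tables, 4 were high in OEZ replicate 2 and low in the other OEZ pools, and their ZH17 levels varied. LOC_Os02g52710 was at 0.0654, 127 and 0.572 FPKM in OEZ replicates 1, 2 and 3, against 42.6, 123 and 81.8 FPKM in ZH17. LOC_Os02g52700 was at 0.0971, 38.3 and 0.0314 FPKM in OEZ, against 23.3, 54.0 and 36.7 FPKM in ZH17. These 2 loci were about as high in ZH17 replicate 2 as in OEZ replicate 2 or higher. LOC_Os08g36900, at 40.04 FPKM in OEZ replicate 2 and 9.85, 23.7 and 23.8 FPKM in ZH17, and LOC_Os09g28420, at 26.5 FPKM in OEZ replicate 2 and 3.53, 15.2 and 11.5 FPKM in ZH17, were listed at 0 in the other OEZ pools and were lower in every ZH17 pool than in OEZ replicate 2. LOC_Os06g49970, LOC_Os08g36910, LOC_Os01g25510 and LOC_Os09g28400 stayed at or below 1.75 FPKM in every pool. The TIP3 locus LOC_Os10g35520 was at 10.1, 11.2 and 9.72 FPKM in OEZ and 9.42, 10.2 and 11.5 FPKM in ZH17, with similar levels in all pools, and the TIP3 locus LOC_Os04g44570 did not exceed 0.407 FPKM in any pool.

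Other lists of grain genes were set beside the members. None of the 9 loci on a list of endosperm starch synthesis genes, the 5 on a list of oleosins and late embryogenesis proteins or the 5 on a list of seed transcription factors met the ratio of 10. The starch synthesis list summed to 113, 120 and 112 FPKM in OEZ replicates 1, 2 and 3 and 115 to 121 FPKM in ZH17, and the oleosin list did not exceed 1.52 FPKM in any pool. The starch sum came mostly from LOC_Os08g25734, at 50.3 to 60.3 FPKM, and LOC_Os03g55090, at 35.9 to 41.3 FPKM. LOC_Os06g04200 and LOC_Os02g10800 of that list were at 0.789 and 0.276 FPKM in OEZ replicate 2 and at most 0.0464 FPKM in the other OEZ pools. In ZH17 they were at most 0.0298 FPKM in replicate 1 and at 0.103 to 0.306 FPKM in replicates 2 and 3. The OEZ pools were closer together in the other loci of that list. On the reserve mobilisation list, LOC_Os07g34520 was at 0.576, 5.66 and 0.319 FPKM in OEZ and 2.46, 5.74 and 5.74 FPKM in ZH17, with a ratio of 9.83 just under the threshold. OEZ replicate 2 was the highest OEZ pool in 8 of the 9 starch synthesis loci and 4 of the 5 seed transcription factors. It was also the highest in 3 of the 5 oleosin and late embryogenesis loci and all 3 reserve mobilisation loci in the tables. Every ratio was under 10 when both sides were floored at 0.1. Some of these leads were small, as in LOC_Os08g25734, at 52.8 FPKM against 52.5 FPKM in OEZ replicate 3. The share of all loci with OEZ replicate 2 as the highest OEZ pool was not counted, so nothing is read from these counts. LOC_Os04g40990 of the reserve mobilisation list was at 4.16, 8.68 and 4.196 FPKM in OEZ and 8.28 to 10.9 FPKM in ZH17. The seed transcription factors summed to 12.4, 13.7 and 9.93 FPKM in OEZ replicates 1, 2 and 3, against 6.57, 7.31 and 6.84 FPKM in ZH17. LOC_Os02g15350 of that list was at 6.095, 6.42 and 4.201 FPKM in OEZ, against 0.152, 0.567 and 0.588 FPKM in ZH17. In this sum and this locus every OEZ pool lay above every ZH17 pool, unlike in the storage protein loci.

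In the lists for other tissues OEZ replicate 2 was the highest OEZ pool in 3 of 5 root and 3 of 10 photosynthesis loci. Root transporters summed to 378, 379 and 366 FPKM in OEZ replicates 1, 2 and 3 and to 379 to 434 FPKM in ZH17, and none of the 5 met the ratio of 10. The 10 photosynthesis loci of the green shoot summed to 5906, 7051 and 7128 FPKM in OEZ and to 9958 to 10727 FPKM in ZH17, so OEZ replicates 2 and 3 stood together and replicate 1 was lower. The part of tissue composition in the levels of the 34 loci was not tested.

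**Figure D4:**
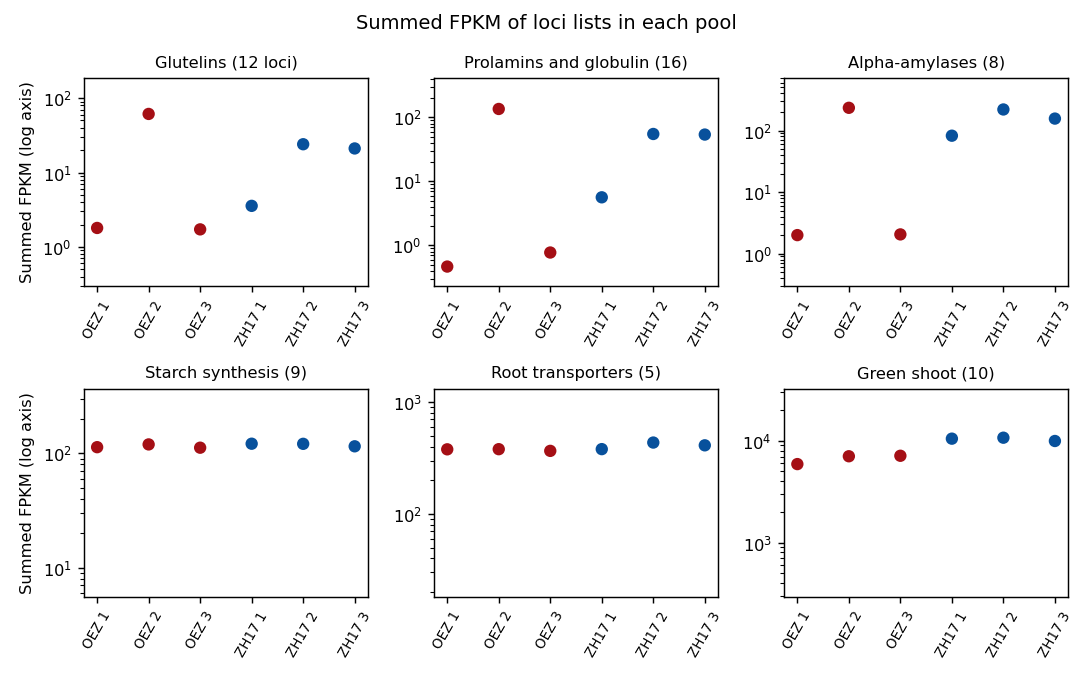
Summed FPKM (log axes) in each OEZ pool (red) and ZH17 pool (blue) of 6 lists, with the number of loci in parentheses. The glutelin, prolamin and globulin, and alpha-amylase sums were low in OEZ replicates 1 and 3 (0.466 to 2.05) and high in OEZ replicate 2 (61.3 to 234). The starch synthesis and root sums differed little between pools, and the starch sum came mostly from LOC_Os08g25734 and LOC_Os03g55090.

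OEZ was compared with ZH17 in limma on log2(FPKM + 0.1) over 22841 loci whose mean over the 6 pools reached 0.5 FPKM, calling a fold change of at least 1.5 with an adjusted p under 0.05. All 34 loci entered the fit, which their level in OEZ replicate 2 alone ensured. None of the 34 was called, against 2.98% of all loci tested (1.56% higher and 1.42% lower in OEZ), and 2 had an unadjusted p under 0.05. Those were LTPL24, whose log2 difference was -5.19 ± 2.13 (standard error, 3 pools each, adjusted p = 0.20 in limma), and the metallothionein-like locus, whose difference was -3.77 ± 1.59 (adjusted p = 0.21 in limma). The choice of members fixed a wide spread in OEZ, so nothing is read from these counts.

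Without OEZ replicate 2, 27 of the 34 passed the filter and 6 were called, all lower in OEZ, with 0.842% of 22809 loci called as lower and 1.84% called in all. They were the metallothionein-like locus, LTPL24, LOC_Os01g67980, LOC_Os11g14900, LOC_Os07g10580 and LOC_Os07g11330, with log2 fold changes from -7.92 to -5.17. The remaining OEZ pools are those in which the loci were chosen to be low, and the 27 passed the filter through ZH17, so nothing is read from this count. Leaving out any other single pool called none of the 34.

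Near the ratio of 10, the members just inside were LOC_Os07g11380 (15.7), LOC_Os02g14180 (16.7) and LOC_Os11g33000 (17.4), and the loci just outside were LOC_Os07g34520 (9.83), LOC_Os10g26060 of the glutelin list (9.49) and LOC_Os07g38010 (5.24). LOC_Os10g26060 was at 1.68, 15.9 and 1.40 FPKM in OEZ and 1.88, 6.54 and 6.03 FPKM in ZH17. Near 5 FPKM, the members just inside were LOC_Os01g34000 and LOC_Os08g02960, both at 5.36, and LOC_Os02g16820 at 5.59 FPKM. The loci just outside, LOC_Os01g15950 (4.98), LOC_Os12g06750 (4.97) and LOC_Os04g14390 (4.87 FPKM), were listed at 0 in the other 5 pools.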

How the data were processed

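RNA-seq of early seedlings was analysed in 6 libraries, 3 per genotype, grouped and numbered by the sample labels. Reads were aligned by the authors to Nipponbare (IRGSP-1.0, MSU7 annotation) using TopHat2 with its defaults. They deposited the FPKM of each locus as calculated by Cuffdiff, loci at 0 included. Tool versions and the scaling between libraries are not given in the sources used here, and FPKM give no read counts, so precision is limited by the 3 pools per genotype, and p-values measure the spread between these pools. The members and lists were chosen with earlier results of these data known.

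From the deposited FPKM, members were selected as stated, and log2(FPKM + 0.1) was fitted for loci whose mean reached 0.5 FPKM in limma 3.58.1 (R 4.3.3) with a variance trend and Benjamini-Hochberg adjustment over all loci tested. The pseudocount makes differences of low loci too small. The limma step was tested on simulated data. Cuffdiff needs the reads and was not rerun. Descriptive values used Python 3.11.15, numpy 2.4.6 and pandas 2.3.3. Gene descriptions came from the authors' list of differentially expressed genes, which covers 8 of the 34 loci, and its values were not used. The lists of glutelins, prolamins and other markers were written from general knowledge of MSU identifiers, which the files do not annotate, so they are assignments of this work. Of the 78 listed loci, those absent from the tables, including the alpha-amylase LOC_Os09g28430, were not analysed here.

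The loci named were the 10 highest in OEZ replicate 2 and in the ZH17 median, the 5 highest and 5 lowest in the ratio of the ZH17 median to OEZ replicate 2 and in the ZH17 spread, the 3 on either side of each threshold, those on a list or with a description, the ends of chains of 3 or more members with MSU numbers at most 100 apart, and the alpha-amylase and TIP3 loci. LOC_Os05g26386, LOC_Os04g40990, LOC_Os01g10880, LOC_Os07g13220, the glutelin loci under 5 FPKM, the other loci above 0 in OEZ replicate 2 alone and the neighbours within the chromosome 7 range were named after their values were seen. So were the starch synthesis loci and LOC_Os02g15350. The alternatives tried were other FPKM minimums, ratios and floors, median-ratio scaling, quantile normalization, other pseudocounts and filters, no variance trend, a replicate block, and leaving out each pool. Some, for single members and for the loci above 0 in OEZ replicate 2 alone, were added after the data were seen.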

Additional observations from a re-analysis of the deposited data

How the results depend on the processing

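The set grew to 52 loci at a minimum of 2 FPKM and held 23 to 45 loci under the other settings of the rule, and every setting that loosened a threshold kept all 34. The count with every ZH17 pool above the larger of OEZ replicates 1 and 3 ranged from 19 to 31, and that with every ZH17 pool below OEZ replicate 2 from 22 to 46. Leaving out each ZH17 pool gave 24 to 26 loci and 33 to 34 loci for these counts, and the median ratio of ZH17 to OEZ replicate 2, 0.245 over the 34 loci, ranged from 0.159 to 0.294. Without the 7 loci above 0 in OEZ replicate 2 alone, the counts were 24 and 26 of 27 and the median ratio was 0.283.

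OEZ and ZH17 pools share the numbers 1 to 3, but no source pairs them, and deviations from the genotype means correlated at 0.02, 0.03 and -0.06 between same-numbered pools. In a fit with a replicate block, 321 of 22841 loci were called in place of 681, and none of the 34 in either fit, with 3 of the 34 at an unadjusted p under 0.05. Leaving out each pool gave 327 to 967 loci called (358 without OEZ replicate 1, 420 without OEZ replicate 2, 327 without OEZ replicate 3 and 367 without ZH17 replicate 2), and 0 to 6 of the 34, the 6 without OEZ replicate 2. None of the 34 was called under any other setting of limma. Median-ratio scaling shifted libraries by at most 0.04 on the log2 scale. FPKM near or at 0 limit what can be said of the low pools.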

Other observations

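Loci with the opposite pattern were also counted. With at least 5 FPKM in both OEZ replicates 1 and 3 and at least 10 times OEZ replicate 2, 9 loci were found, and they were not examined further. When only the FPKM minimum was lowered to 2, the set of loci high in OEZ replicate 2 grew by 18, among them LOC_Os03g31360 (2.57 FPKM in OEZ replicate 2), LOC_Os02g14600 (3.11 FPKM), LOC_Os02g25640 (3.03 FPKM) and LOC_Os02g15090 (2.04 FPKM) of the glutelin list, each listed at 0 in OEZ replicates 1 and 3. In ZH17 these glutelin loci were at 0.0379 to 0.107 FPKM in replicate 1 and at 0.242 to 1.36 FPKM in replicates 2 and 3. Replicate 1 was thus their lowest ZH17 pool, as it was in 24 of the 34 loci.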
